A study of Mus musculus with 12 samples.

Results

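The cyclin genes of mouse embryonic stem cells (mESCs) are described here in newly made and total RNA. The 9 genes were named one by one (Ccnd1, Ccnd2, Ccnd3, Ccne1, Ccne2, Ccna2, Ccnb1, Ccnb2 and Ccnf), and every exonic and intronic value of their transcripts was taken, out of 34079 annotated genes with values. They held 60 rows of values, 30 exonic and 30 intronic, from 30 of their 31 annotated transcripts. Some intronic rows had no value in some libraries. The absent transcript was 1 of the 2 annotated for Ccnf. DTCM23/49 XY mESCs, a male line grown in serum and LIF on gelatin, were given 200 µM 4-thiouridine (4sU), a uridine analog that is built into RNA as it is made, for 15, 30 or 60 min. At each time, RNA carrying 4sU was pulled down through biotin (labeled RNA) and unselected RNA of the same culture was kept (total RNA), with 2 replicates that came from 1 culture split and passaged separately. All 12 libraries carried 4sU, so no library without the analog was compared.

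Cyclins are the regulatory partners of cyclin-dependent kinases (CDKs), and their turnover at set points of the cell cycle gives each CDK its window of activity. D-type cyclins pair with CDK4 and CDK6 in G1 and E-type cyclins pair with CDK2 at the entry to S phase, while cyclin A2 acts in S phase and G2 and B-type cyclins drive mitosis with CDK1. Cyclin F, the product of Ccnf, is the F-box subunit of a ubiquitin ligase and activates no CDK. mESCs cycle fast with a short G1, and the genes of late cyclins are known to be read mainly in S and G2.

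The share of abundance that fell on introns is a check on the pulldown, since introns are removed soon after transcription. It was 6.52% to 7.40% in the 6 total libraries. In labeled RNA of replicate 1 it was 14.8% at 15 min, 9.33% at 30 min and 13.9% at 60 min. In labeled RNA of replicate 2 it was 10.7% at 30 min, but 7.23% at 15 min and 6.98% at 60 min, within the range of total RNA. The last 2 libraries thus stood apart from their label, and labeled-to-total results are given with and without them. All 8 mESC markers listed (among them Pou5f1, Sox2 and Nanog) were above the minimum abundance of 20, and their summed level was 20570 to 29010 in total and 19347 to 31969 in labeled RNA. Of 19 markers of fibroblasts, endoderm, mesoderm, neural cells and trophectoderm, 18 were found. Of these, 3 were above that minimum (1 fibroblast marker and 2 neural ones). The summed level of the 18 was 104 to 250.3 in total and 96.8 to 274 in labeled RNA. The number of reads behind a value is not known, because the deposited abundances are scaled to almost the same sum in each library.

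The promoters of 5 of the 9 genes were matched by symbol in RefSeq (GRCm38.p6), in windows of 250 bases before and 50 bases from the annotated start. Ccnd1, Ccnd2, Ccne2 and Ccna2 were not among the matches. They are shown for 2 kinds of motif that promoters of late cell cycle genes are known for, written in capitals. The mitotic gene Ccnb2 and the G2 gene Ccnf carried both, and the mitotic gene Ccnb1 carried the first. The motifs are CCAAT, the letters that the factor NF-Y binds, and TTTGAA, the cell cycle genes homology region (CHR) bound by the DREAM and B-MYB complexes. Each window reads 5′ to 3′ on the strand of its gene, and both strands were searched.
Ccnb1, chr13:100786437-100786736, minus strand: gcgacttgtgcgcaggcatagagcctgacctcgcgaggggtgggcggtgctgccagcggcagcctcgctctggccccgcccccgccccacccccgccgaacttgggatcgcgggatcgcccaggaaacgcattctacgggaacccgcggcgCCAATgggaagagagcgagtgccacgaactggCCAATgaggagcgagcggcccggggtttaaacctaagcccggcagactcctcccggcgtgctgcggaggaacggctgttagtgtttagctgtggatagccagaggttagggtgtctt
Ccnb2, chr9:70421505-70421804, minus strand: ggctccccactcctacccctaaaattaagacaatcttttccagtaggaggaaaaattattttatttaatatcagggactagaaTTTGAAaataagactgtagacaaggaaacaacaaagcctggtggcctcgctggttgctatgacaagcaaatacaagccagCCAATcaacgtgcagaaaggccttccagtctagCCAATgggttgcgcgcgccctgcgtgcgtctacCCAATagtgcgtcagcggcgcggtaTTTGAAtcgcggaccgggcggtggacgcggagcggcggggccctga
Ccnf, chr17:24251360-24251659, minus strand: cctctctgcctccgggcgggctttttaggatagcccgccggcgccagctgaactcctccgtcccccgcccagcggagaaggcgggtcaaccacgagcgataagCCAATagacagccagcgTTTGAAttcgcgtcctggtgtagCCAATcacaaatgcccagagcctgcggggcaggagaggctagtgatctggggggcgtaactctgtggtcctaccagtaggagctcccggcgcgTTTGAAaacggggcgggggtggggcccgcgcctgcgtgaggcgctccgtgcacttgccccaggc
Ccne1, chr7:38107441-38107740, minus strand: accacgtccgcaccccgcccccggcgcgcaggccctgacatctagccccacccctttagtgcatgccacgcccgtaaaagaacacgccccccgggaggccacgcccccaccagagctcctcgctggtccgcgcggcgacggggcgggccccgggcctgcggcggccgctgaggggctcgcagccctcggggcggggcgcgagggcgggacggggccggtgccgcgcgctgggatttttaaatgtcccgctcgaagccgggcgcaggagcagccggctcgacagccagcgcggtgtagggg
Ccnd3, downstream of its 2 starts, chr17:47593217-47593516, plus strand: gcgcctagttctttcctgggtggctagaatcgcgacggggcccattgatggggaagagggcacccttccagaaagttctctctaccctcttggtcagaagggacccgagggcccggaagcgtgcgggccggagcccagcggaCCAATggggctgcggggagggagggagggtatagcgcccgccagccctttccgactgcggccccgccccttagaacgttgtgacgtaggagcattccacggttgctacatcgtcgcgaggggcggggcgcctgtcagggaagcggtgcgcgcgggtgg

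With the start counted as base 1, CCAAT began at bases -87, -54 and -21 of Ccnb2, at -99 and -67 of Ccnb1 and at -147 and -107 of Ccnf. The Ccnd3 window held it once, at -108, and the Ccne1 window and the upstream Ccnd3 window did not hold it. TTTGAA began at -167 and 5 of Ccnb2 and at -130 and -14 of Ccnf, and was not in the other 4 windows. No CCAAT overlapped a TTTGAA. Over all 32851 RefSeq windows of this length, 37.4% held at least 1 CCAAT, 11.7% at least 2 and 3.37% at least 3, and 17.9% held TTTGAA, 2.31% at least 2 times. The letters TTTCCCGC, a form of the E2F site, were in 1.07% of all windows and in none of the 6 cyclin windows.

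The S and G2 gene Ccna2 and the mitotic genes Ccnb1 and Ccnb2 were the most abundant of the 9 cyclins and the D-type gene Ccnd2 the least. Levels between genes were compared on the length-normalized abundance of the longest protein-coding transcript, in total RNA, because sums grow with the number of transcripts annotated for a gene. Ccnb1 (chromosome 13, 100778739 to 100786486, GRCm38.p6) had 1056 ± 300 (SD, n = 6) and lay above 94.2% of 8758 expressed genes. Ccna2 (chromosome 3, 36564865 to 36573038) had 956 ± 101 and Ccnb2 (chromosome 9, 70407689 to 70421554) had 627 ± 63.5. The library ranges of Ccnb1 and Ccna2 overlapped, and those of Ccna2 and Ccnb2 did not. Ccnb1 at its lowest, 611, was within the range of Ccnb2, whose highest value was 703.

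Ccnd1 (chromosome 7, 144929931 to 144939831) followed with 271 ± 59.3 and Ccne1 (chromosome 7, 38097984 to 38107490) with 177 ± 23.4, and neither overlapped its neighbours in the order. Ccnd3 (chromosome 17, 47505051 to 47599689) had 101 ± 18.2, Ccnf (chromosome 17, 24223230 to 24251409) had 89.3 ± 14.1 and Ccne2 (chromosome 4, 11190433 to 11204779) had 71.6 ± 21.5. These 3 overlapped as neighbours, and Ccnd3 stood above 52.8% of expressed genes. Ccnd2 (chromosome 6, 127125162 to 127152188) had 10.0 ± 1.95, with a range of 7.02 to 13.0, below the range of every other cyclin. The abundance of Ccnb1 is uncertain in part, because it shares sequence with the pseudogenes Gm5593 and Gm12856. Their summed exonic abundance averaged 1451 and 688 over the 12 libraries. How reads were divided between them and Ccnb1 was not tested. Of the 50-base runs of Gm5593 67.2%, and of those of Gm12856 47.4%, also occur in Ccnb1 exons. Ccnd3-ps, a pseudogene that shares 143 such runs with Ccnd3, was listed in the table with no value above the detection limit.

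**Figure D1:**
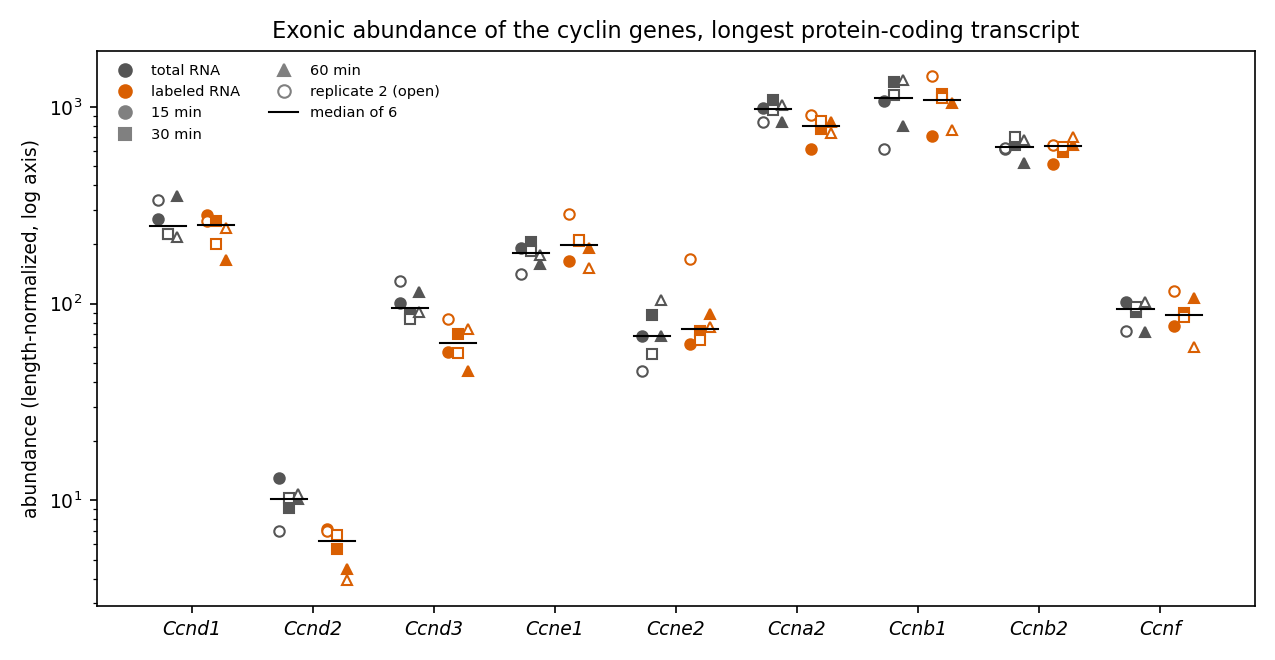
Length-normalized exonic abundance (log axis) of the longest protein-coding transcript of each cyclin gene, with 1 point per library, grey for total and orange for labeled RNA, symbols for labeling time, open symbols for replicate 2 and a bar at the median of 6. Ccnb1, Ccna2 and Ccnb2 lie at the top, Ccnd2 is near 10, and the labeled points of Ccnd3 lie below most of its total points.

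Labeled and total RNA were next compared for exonic abundance, which asks whether a gene's exonic sequence is enriched among molecules made during the pulse. The abundances of a gene's transcripts were summed, log2(value + 1) was fitted over the 12 libraries with labeling time as a term, and limma was used with Benjamini-Hochberg adjustment over 13977 genes of mean abundance 20 or more. Over all genes, 16.8% were called at an adjusted p under 0.05, 5.28% higher and 11.6% lower in labeled RNA, around a median difference of -0.05. Of the 8 cyclin genes that passed the minimum, 1 was lower, Ccnd3, and none was higher. The median difference of the 8 was -0.07.

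Ccnd3, a D-type cyclin that pairs with CDK6 and CDK4, summed to 195 at its lowest, 224 at the median and 310 at its highest in total RNA. In labeled RNA it ran from 104 over 150 to 193. The groups did not overlap, by a narrow margin, and labeled was lower than total in all 6 pairs. Of all genes tested, 7.28% showed that lower separation. The difference was -0.65 (SE 0.17) on the log2 scale (limma, adjusted p = 0.0237). Without the 2 labeled libraries that stood apart it was -0.81 (limma, adjusted p = 0.0113), with 14.7% of all genes lower. The call was lost, with limma's adjusted p at 0.0508, in the fit with the pairing of labeled and total libraries as a block, and at 0.0514 with library medians set equal. With 1 replicate alone it was also lost, with limma's adjusted p at 0.508 without replicate 1 and 0.317 without replicate 2. In each of those fits 0 of 13977 genes were called lower, so the loss was not particular to Ccnd3. The call of Ccnd3 was also lost without any 1 of 4 libraries, with limma's adjusted p at 0.0550 (total, 60 min, replicate 1), 0.0543 (total, 15 min, replicate 2), 0.0599 (labeled, 15 min, replicate 1) and 0.0618 (labeled, 30 min, replicate 2).

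The other G1 and G1/S genes passed no test on exonic abundance over the 12 libraries. Ccnd1, the D-type cyclin that answers to mitogens, ran from 319 over 350 to 493 in total and from 260 over 386 to 394 in labeled RNA, so the groups overlapped. Its difference was -0.12 (SE 0.15, limma adjusted p = 0.622). Ccne1, an E-type partner of CDK2, ran from 549 over 616 to 691 in total and from 501 over 753 to 913 in labeled RNA, higher in 5 of 6 pairs. The difference of Ccne1 was 0.24 (SE 0.13, limma adjusted p = 0.237). It was called higher without the 60 min labeled library of replicate 2 (0.34, limma adjusted p = 0.0462), as were 7.56% of all genes, and missed the threshold without both libraries that stood apart (0.29, limma adjusted p = 0.0651).

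Ccne2, the second E-type gene, ran from 312 over 456 to 630 in total and from 391 over 511 to 1024 in labeled RNA. Its highest value was in the 15 min labeled library of replicate 2, 1 of the 2 that stood apart, and the next highest labeled value was 583. The difference was 0.30 (SE 0.24, limma adjusted p = 0.408) and 0.20 without those 2 libraries. Ccnd2 was below the minimum and was left out of the tests. It ran from 7.02 over 10.2 to 13.0 in total and from 3.92 over 6.19 to 7.19 in labeled RNA, lower in all 6 pairs, and with no minimum on abundance its difference was -0.70 (SE 0.25, limma adjusted p = 0.117).

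The S, G2 and mitotic genes passed no test on exonic abundance over the 12 libraries either, with library medians as deposited. Ccna2, the S and G2 cyclin, ran from 3086 over 3912 to 4404 in total and from 2412 over 3232 to 3632 in labeled RNA. Labeled Ccna2 was lower in 4 of 6 pairs, and the difference was -0.31 (SE 0.13, limma adjusted p = 0.128). With library medians set equal it was -0.29 and passed (limma, adjusted p = 0.0411), as 14.7% of all genes did in that direction. It was also called lower without the 15 min labeled library of replicate 2 (-0.39, limma adjusted p = 0.0427), with 15.1% of all genes, but not without both libraries that stood apart (-0.34, limma adjusted p = 0.0692). Ccnb1, the main mitotic cyclin, ran from 4288 over 6495 to 7756 in total and from 4168 over 6036 to 8010 in labeled RNA, a full overlap, with a difference of -0.12 (SE 0.19, limma adjusted p = 0.683).

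Ccnb2, the other B-type cyclin, varied little between libraries. It ran from 520 over 627 to 703 in total and from 514 over 630 to 704 in labeled RNA, with a difference of -0.02 (SE 0.11, limma adjusted p = 0.913). Ccnf ran from 71.8 over 93.5 to 103 in total and from 60.4 over 87.3 to 116 in labeled RNA, with a difference of -0.02 (SE 0.18, limma adjusted p = 0.956). An interval of 2 standard errors around these differences reached -0.24 to 0.20 for Ccnb2 and -0.38 to 0.34 for Ccnf, so changes within those bounds cannot be told from none.

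Each transcript was also tested on its own, over 45495 transcripts of which 17.3% were called. Of 28 cyclin transcripts above the minimum, 2 were lower and none was higher, and both were of Ccnd3 (-0.64 and -0.65, limma adjusted p = 0.0303 and 0.0214). These are not separate observations. The 2 transcripts of Ccnd3 start at different sites and end at the same one, and their intronic abundances were the same to within 0.01 in every library although one spans a far longer intron. Differences among the transcripts of 1 gene were narrow for Ccna2 (-0.34 to -0.29, 4 transcripts) and wider for Ccne2 (0.08 to 0.77, 7 transcripts) and Ccnb1 (-0.30 to 0.08, 7 transcripts), with no call in any of these genes.

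**Figure D2:**
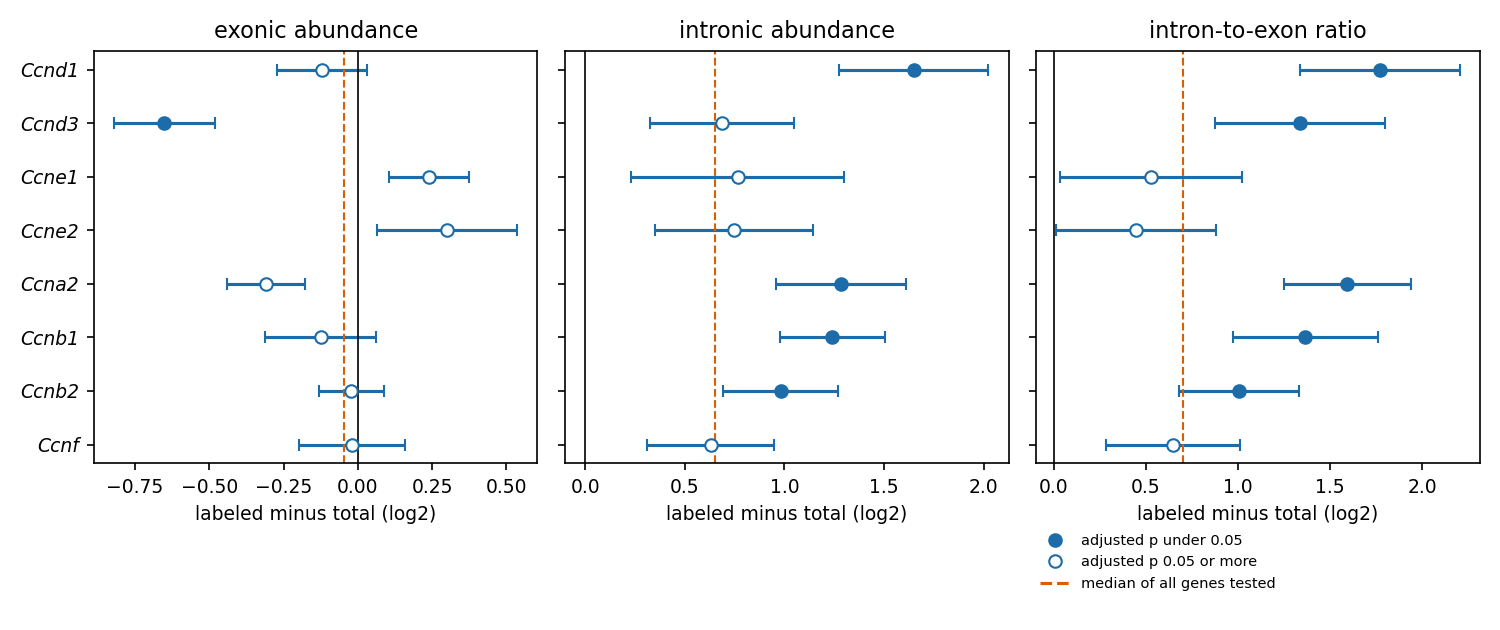
Labeled minus total difference (log2, point) with its standard error (bar) for the 8 tested cyclin genes, in exonic abundance, intronic abundance and intron-to-exon ratio. Filled points have an adjusted p under 0.05, the black line is no difference and the dashed line is the median of all genes tested, which lies at -0.05, 0.65 and 0.70, so that a point is to be read against the dashed line.

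Intronic abundance, a measure of RNA not yet spliced, was higher in labeled RNA for most genes, and 4 cyclins were called with them. Over 14780 genes of mean intronic abundance 5 or more, the median difference was 0.65 and 30.2% were called higher and 0.21% lower. Of the 8 cyclins above the minimum, 4 were called higher, Ccnd1, Ccna2, Ccnb1 and Ccnb2, and none lower. The median of the 8 was 0.87. Ccnd1 ran from 9.26 over 13.6 to 23.5 in total and from 14.6 over 56.5 to 82.2 in labeled RNA. Its lowest labeled value, in the 60 min library of replicate 2 that stood apart, was within the total range. The difference of Ccnd1 was 1.65 (SE 0.38, limma adjusted p = 0.00658), or 1.00 above the median of all genes.

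Ccna2 ran from 35.5 over 64.0 to 76.2 in total and from 76.3 over 142 to 244 in labeled RNA, with a difference of 1.29 (SE 0.33, limma adjusted p = 0.0110). Ccnb1 ran from 246 over 347 to 453 in total and from 554 over 763 to 1498 in labeled RNA, with a difference of 1.24 (SE 0.26, limma adjusted p = 0.00462). Its transcript ENSMUST00000147790, with a single intron of 236 bases, weighed unevenly in that sum. It held 815 (labeled, 15 min, replicate 1) and 545 (labeled, 60 min, replicate 2), but 163 to 324 in the other labeled and 57.2 to 215 in the total libraries. On the longest protein-coding transcript Ccnb1 ran from 29.3 over 39.3 to 46.0 in total and from 56.0 over 74.1 to 103 in labeled RNA. Ccnb2 ran from 7.61 over 11.3 to 12.6 in total and from 13.2 over 24.4 to 33.1 in labeled RNA, with a difference of 0.98 (SE 0.29, limma adjusted p = 0.0211). In these 3 genes the groups did not overlap, which 16.1% of all genes tested showed in that direction. For Ccna2 and Ccnb2 the margin was narrow and was set by the 60 min labeled library of replicate 2. The call of Ccnb2 was lost without any 1 of 3 libraries, with limma's adjusted p from 0.0515 (total, 30 min, replicate 1) over 0.0564 (total, 60 min, replicate 1) to 0.0608 (labeled, 30 min, replicate 2). Without replicate 1, limma's adjusted p was 0.0601 for Ccna2, 0.0778 for Ccnd1 and 0.410 for Ccnb2. Ccnb1 alone of the cyclins was then called, while 1731 of 14780 genes were called higher.

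The other 4 genes had differences near the median of all genes and were not called. Ccnd3 ran from 12.3 over 13.8 to 15.5 in total and from 9.58 over 22.2 to 51.4 in labeled RNA, with a difference of 0.69 (SE 0.36, limma adjusted p = 0.147). Ccne2 ran from 101 over 112 to 128 in total and from 49.6 over 211 to 399 in labeled RNA, with a difference of 0.75 (SE 0.40, limma adjusted p = 0.152). Both had their lowest labeled value in a library that stood apart. Ccnf had a difference of 0.63 (SE 0.32, limma adjusted p = 0.134).

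The intronic sum of Ccne1 was also uneven between libraries. Its short transcript ENSMUST00000137097, with a single intron of 97 bases, had an intronic abundance of 180 to 202 in 3 libraries and none in the other 9. Another, ENSMUST00000128785, had 176 in the 60 min labeled library of replicate 1 and at most 64.7 in the others. With the sum, its difference was 0.77 (SE 0.53, limma adjusted p = 0.260). On the longest protein-coding transcript alone, Ccne1 ran from 14.0 over 15.5 to 21.1 in total and from 15.7 over 34.3 to 47.5 in labeled RNA, higher in all 6 pairs, and was called (0.89, SE 0.29, limma adjusted p = 0.0297). The calls of Ccnd1, Ccna2, Ccnb1 and Ccnb2 were also made on the longest protein-coding transcript, on which 3447 of 10785 genes were called higher.

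The 2 labeled libraries that stood apart were picked by their low intronic share, so leaving them out raises intronic differences by construction. Without them, 88.8% of all genes were called higher in intronic abundance, and so were 7 of the 8 cyclins. Their differences then ran from 1.03 for Ccnf over 1.21 for Ccnd3, 1.33 for Ccnb2, 1.35 for Ccne2, 1.37 for Ccnb1 and 1.63 for Ccna2 to 2.18 for Ccnd1, while Ccne1 at 0.94 was not called. A count so near the share of all genes says nothing particular about cyclins. With library medians set equal, which removes the general rise, 5.56% of genes were called higher and 6.74% lower. Ccnd1 (0.95, limma adjusted p = 0.0298) and Ccna2 (0.58, limma adjusted p = 0.0388) were then called higher, and Ccnb1 (0.54, limma adjusted p = 0.158) and Ccnb2 (0.28, limma adjusted p = 0.173) were not.

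The ratio of intronic to exonic abundance within a gene sets unspliced sequence against exonic sequence, which spliced and unspliced RNA both hold. On the longest protein-coding transcript and in total RNA, introns stood at 1.29% of exonic abundance in Ccnd1, 1.73% in Ccnb2, 2.14% in Ccna2 and 3.59% in Ccnb1, against a median of 12.4% over 7519 genes. Only 2.30% of genes lay below Ccnd1. The ratio was 6.88% in Ccnd3, 9.33% in Ccne1, 12.9% in Ccnf and 19.7% in Ccne2. Ccnd2, which was below the minimum abundance, had 13.3% in total and 48.8% in labeled RNA. In labeled RNA it was 6.24% in Ccnd1, 3.82% in Ccnb2, 7.38% in Ccna2 and 7.25% in Ccnb1, against a median of 24.0%. The 4 genes with the least intronic sequence per exonic sequence in total RNA were those whose summed intronic abundance was called higher in labeled RNA. The match did not hold on the longest transcript, where Ccne1 (9.33%) was called too and Ccnd3 (6.88%) was not.

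**Figure D3:**
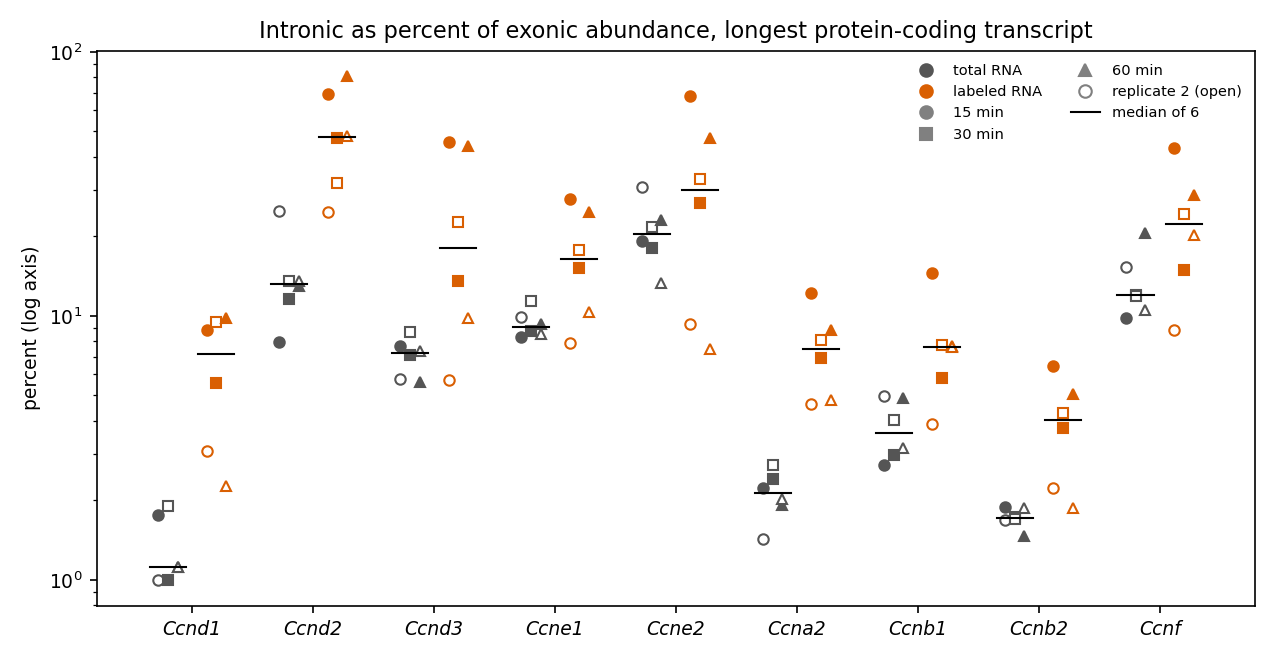
Intronic abundance as a percent of exonic abundance (log axis) of the longest protein-coding transcript of each cyclin gene, with 1 point per library, grey for total and orange for labeled RNA, symbols for labeling time, open symbols for replicate 2 and a bar at the median of 6. Labeled Ccnd1 and Ccna2 lie above every total point, while in the other genes the open orange circles (15 min) or triangles (60 min) of replicate 2 fall among or below the grey points.

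Over 10228 genes tested for this ratio on summed abundances, the median labeled-to-total difference was 0.70 and 26.0% were called higher. Of the 8 cyclins, 5 were called higher, with a median of 1.17 over the 8. They were Ccnd1 (1.77, SE 0.43, limma adjusted p = 0.0127), Ccna2 (1.59, SE 0.34, limma adjusted p = 0.00795), Ccnb1 (1.37, SE 0.39, limma adjusted p = 0.0238), Ccnd3 (1.34, SE 0.46, limma adjusted p = 0.0449) and Ccnb2 (1.00, SE 0.32, limma adjusted p = 0.0361). For Ccnd3 the ratio combines a lower exonic abundance with an intronic one near the median. Its ratio in labeled RNA ran from 4.97% over 15.4% to 38.2%, against 4.73% over 6.22% to 7.39% in total RNA. Labeled was higher in all 6 pairs, and 1 labeled value fell within the total range, that of the 15 min library of replicate 2 that stood apart.

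Ccne1 (0.53), Ccne2 (0.45) and Ccnf (0.65) had ratio differences below the median of all genes and were not called. Leaving out any single library kept the calls of Ccna2 and Ccnd1, while Ccnd3, Ccnb2 and Ccnb1 lost theirs without some of them. For Ccnd3 and Ccnb2 this happened without 10 of the 12 libraries each, the exceptions being the 2 labeled libraries that stood apart, and for Ccnb1 without 4. Ccnb2 also lost its call with a pseudocount of 20. With no minimum on abundance Ccnd3 and Ccnb2 were not called, while Ccnd2, a gene of low values, was called higher, as were 2076 of 18123 genes. Without replicate 1, limma's adjusted p was 0.184 for Ccna2 and 0.352 for Ccnd1. With library medians set equal, 5.31% of genes were called higher and 4.64% lower, and among cyclins Ccna2 was (0.86, limma adjusted p = 0.0108), while Ccnd1 narrowly missed (1.04, limma adjusted p = 0.0533). Without the 2 labeled libraries that stood apart, 7 of 8 cyclins and 81.8% of all genes were called higher. That rise too is built in, since the 2 libraries were picked by their low intronic share.

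Labeling time made no difference that passed the test. Between 60 and 15 min, limma called 0 of 13977 genes in labeled RNA, 0 in total RNA and 0 for the change in their difference. At an unadjusted limma p under 0.05 there were 178, 108 and 162 genes, none of them a tested cyclin. Each of these counts was below the share of 0.05 that chance alone would give. The lack of calls therefore does not show that abundance was unchanged with time. Each group held 2 libraries, and the 2 labeled ones that stood apart were among those compared. Other settings called between 0 and 11 genes, again no cyclin. Labeled Ccnd1 had 386 and 394 at 15 min, 344 ± 63.5 (SD, n = 2) at 30 min and 323 ± 89.5 at 60 min. Labeled Ccnb1 had 6089 ± 2717 at 15 min, 6186 ± 41.9 at 30 min and 5067 ± 1201 at 60 min. The spread between replicates was largest at 15 or 60 min in both genes.

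Ccne2 came nearest to the threshold on time. Its labeled abundance was 459 and 1024 at 15 min and 583 and 391 at 60 min, while its total abundance was 424 and 312 at 15 min and 488 and 630 at 60 min (replicates 1 and 2). The labeled-to-total difference changed by -1.13 (SE 0.53) from 15 to 60 min, with an unadjusted limma p of 0.0585 and an adjusted p of 1. Only replicate 2, whose labeled libraries at both times stood apart, fell below its total library at 60 min. In replicate 1 the labeled value was the higher at both times.

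The G1 and the mitotic genes were set against each other in each labeled and total pair. The 4 tested G1 and G1/S genes (Ccnd1, Ccnd3, Ccne1, Ccne2) had a mean labeled-to-total exonic difference of -0.06 ± 0.26 (SD, n = 6 pairs). The 4 later genes (Ccna2, Ccnb1, Ccnb2, Ccnf) had -0.12 ± 0.42. The gap between the classes was 0.06 ± 0.41 in favour of the G1 genes, and ran from -0.70 to 0.38 over the pairs. It was above 0 in 4 pairs and below 0 in the 60 min pair of replicate 1 and the 15 min pair of replicate 2. The gap was smaller than its spread between pairs. It was also not a contrast of like genes, since the D-type genes lay below 0 (Ccnd3 -0.65, Ccnd1 -0.12) and the E-type genes above it (Ccne1 0.24, Ccne2 0.30).

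**Figure D4:**
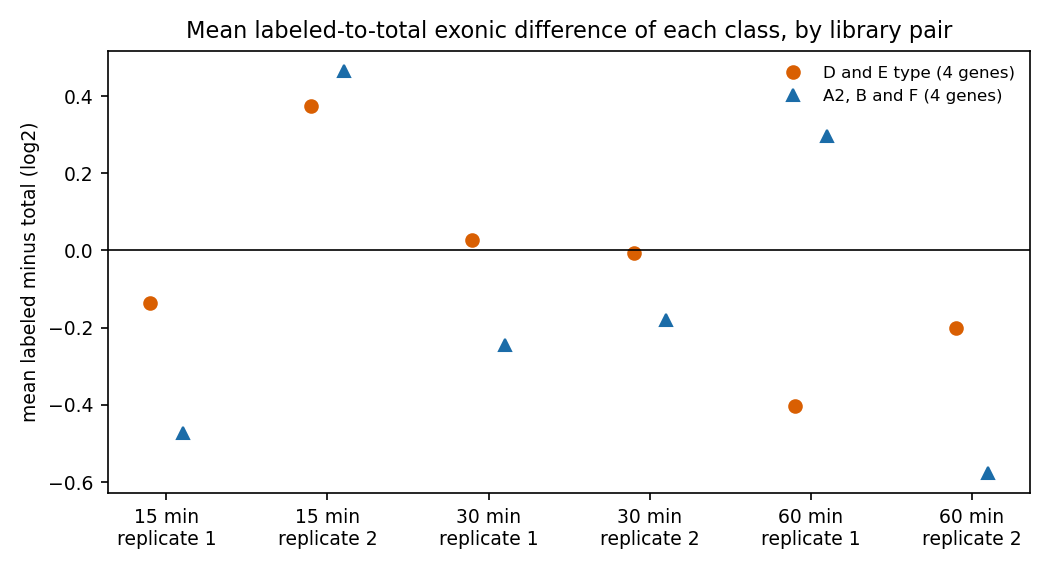
Mean labeled minus total exonic difference (log2) of the 4 tested D-type and E-type genes (circles) and of Ccna2, Ccnb1, Ccnb2 and Ccnf (triangles) in each of the 6 labeled and total pairs. The circles lie above the triangles in 4 pairs, with a gap of 0.34, 0.27, 0.17 and 0.38, and below them in the 60 min pair of replicate 1 (-0.70) and the 15 min pair of replicate 2 (-0.09).

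Within total RNA, Ccnd1 and Ccnd3 deviated in the opposite direction to Ccnb1, Ccna2 and Ccnf in 5 of the 6 libraries. In the 15 min library of replicate 2, Ccnd1 was 0.33 and Ccnd3 0.40 above its own log2 mean over the 6 total libraries, and Ccnb1 was 0.52, Ccna2 0.28 and Ccnf 0.29 below, while Ccnb2 was at its mean (-0.02). The 60 min library of replicate 1 had the same signs, with Ccnd1 0.38 and Ccnd3 0.23 above its mean and Ccnb1 0.31, Ccna2 0.23, Ccnf 0.30 and Ccnb2 0.26 below. In both 30 min libraries and the 60 min library of replicate 2 the signs were the opposite. In the 15 min library of replicate 2 and the 60 min library of replicate 1 the deviations were larger than the labeled-to-total exonic differences of Ccnd1, Ccnb1 and Ccnf, and they cross both the time and the replicate number. A labeled-to-total difference taken within a pair carries the deviation of its total library. In bulk RNA, a lower share of cells in a phase and less RNA per cell cannot be told apart.

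**Figure D5:**
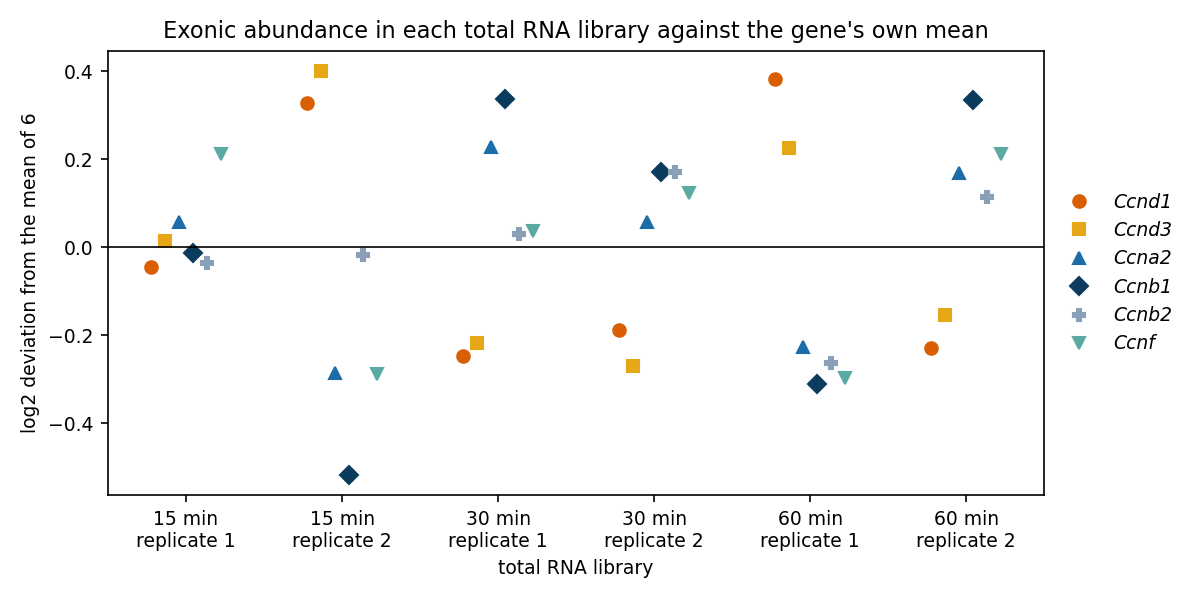
Log2 deviation of the exonic abundance of Ccnd1, Ccnd3, Ccna2, Ccnb1, Ccnb2 and Ccnf from the gene's own mean over 6 total RNA libraries (1 point per gene and library). In the 15 min library of replicate 2 and the 60 min library of replicate 1 Ccnd1 and Ccnd3 lie above 0 and Ccna2, Ccnb1 and Ccnf below, with Ccnb2 near 0 in the first and below 0 in the second, and in 3 of the other 4 libraries the order is turned.

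The genes whose exonic profile was most like that of Ccnd1 over the 12 libraries were Stk40 (Pearson r = 0.93), Gm6365 (0.93) and Gm14970 (0.91), out of 13977 genes. For Ccnb1 they were the pseudogene Gm5593 (r = 0.99), Gm5616 (0.99) and Ddx18 (0.98). These values describe 12 libraries that share cultures and scaling, and the first match of Ccnb1 shares sequence with it.

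The partners and regulators of cyclins were counted from 7 lists of 76 genes in all. In exonic abundance 67 were tested, and labeled RNA had more of 3 and less of 11 (median -0.10), against 5.28% and 11.6% of all genes. Of the 7 CDKs and CDK-binding subunits, 1 was higher and none lower (median 0.04), from Cdk6 at -0.38 to the called Cks2, a small subunit that binds CDK1 and CDK2, at 0.56. Of 7 CDK inhibitors 3 were tested and none was called (median 0.01), from Cdkn1b at -0.01 to Cdkn1a at 0.63. Of 13 RB and E2F genes 12 were tested and 1 was called, Tfdp1, the DNA-binding partner of E2F factors, which was lower by 0.68 on the log2 scale (-0.68), while E2f7 was the highest at 0.41 (median -0.05).

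None of the 5 CDK phosphatases and kinases was called (median 0.01), from Wee1 at -0.53 to Cdc25b at 0.22. Of 9 genes of cyclin degradation 8 were tested, 3 were lower and 1 higher (median -0.26). The lowest was Fbxw11, an F-box protein, at -0.52 and the highest Fbxo5, the inhibitor of the anaphase-promoting complex, at 0.70. Of 18 genes of the G2/M program 4 were lower and none higher (median -0.30), from the called Tpx2, a spindle assembly factor, at -0.45 to Lin52 at 0.29. Of 17 other cyclins 14 were tested, 3 were lower and 1 higher (median -0.28), from Ccni at -1.03 to Ccng2 at 0.60, both called.

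In intronic abundance 70 of the 76 genes were tested, 27 were higher and none lower, against 30.2% and 0.21% of all genes, with a median of 0.62 beside 0.65 for all genes. The counts were 5 of 7 for the CDK partners (median 0.96), 1 of 3 for the inhibitors (0.61), 7 of 13 for RB and E2F (0.84), 1 of 5 for the phosphatases and kinases (0.58), 3 of 8 for degradation (0.38), 7 of 18 for G2/M (0.67) and 3 of 16 for the other cyclins (0.51). The extremes were Ccnt2 at -0.20, not called, and Ccno at 2.17. For the intron-to-exon ratio 22 of 66 were higher, against 26.0% of all genes, and none lower (median 0.75 beside 0.70), from Lin52 at -0.28 to Fzr1, an activator of the anaphase-promoting complex, at 1.69. The list counts were 1 of 7, 0 of 2, 5 of 12, 1 of 5, 3 of 8, 9 of 18 and 3 of 14 in the same order.

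The uridine content, which together with length sets how many places in a transcript 4sU can enter, differed among the cyclins. In the longest protein-coding transcripts (GENCODE M1) it was 31.6% in Ccne2, above 97.4% of 8758 genes, and 29.1% in Ccnb1, above 88.0%. It was 27.3% in Ccnd2, 27.2% in Ccna2, 25.0% in Ccnd1, 23.9% in Ccnb2, 23.3% in Ccne1, 22.2% in Ccnd3 and 22.0% in Ccnf, around a median of 24.9%. The count of uridines was 1559 in Ccnd2, 950 in Ccne2, 935 in Ccnd1, 805 in Ccna2 and 725 in Ccnb1. It was 664 in Ccnf, 469 in Ccnd3, 466 in Ccne1 and 368 in Ccnb2. Whether uridine content or count bears on the labeled-to-total differences was not tested. ATTTA, the core of AU-rich elements known to shorten mRNA life, occurred 11 times in Ccne2, 5 times each in Ccnd1 and Ccnb1, 4 times in Ccnd2, once each in Ccnd3, Ccne1 and Ccna2 and not in Ccnb2 or Ccnf, against a median of 2. The longer letters TTATTTATT were in Ccne1, Ccne2 and Ccnb1 and in 8.15% of all genes. These are matches of letters anywhere in the transcript and say nothing of whether a site is used.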

How the data were processed

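The authors removed ribosomal reads, aligned the rest to exonic and intronic sequences with STAR 2.5.0 (mm10) and quantified transcripts with RSEM, per the submitters' processing notes and the study's methods. The deposited values are a length-normalized signal per transcript, with exonic and intronic rows, and each library sums to 19988830 to 19992902 over exons and introns. How the authors scaled them, and why no value is below 1.01, is not given in the sources used here. Missing values were set to 0. Transcripts were assigned to genes with GENCODE M1, which held 75.1% of the Ensembl identifiers. How reads shared by transcripts of 1 gene were divided was not tested, and sums over transcripts were used for differences only. Coordinates and promoters are from RefSeq on GRCm38.p6.

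Gene sums were tested on log2(value + 1) with limma 3.58.1 in R 4.3.3 (labeled or total and labeling time as terms, mean-variance trend, Benjamini-Hochberg adjustment), for genes of mean abundance 20 (exonic) or 5 (intronic) or more. The 60 against 15 min tests used a fit with a mean for each of the 6 groups. The study's methods give reads per library only as an average. The depth of each library is unknown, so no counting error could be given. Replicate numbers mark 2 separately passaged cultures, which is the source of the pairing, and deviations of paired libraries correlated at -0.07, 0.05 and -0.19 (15, 30 and 60 min). The fits were tested on simulated data. The genes and lists were chosen with earlier results of these data known. The text names all 9 cyclins, the highest and lowest gene of each other list, and the 3 genes most like Ccnd1 and Ccnb1. The alternatives were another pseudocount, no minimum, missing values as 1, equal library medians, no trend, a block for pairs, single times, single classes of transcript and libraries left out.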

Additional observations from a re-analysis of the deposited data

Results flagged for a closer look

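The intronic abundance of Ccnf in total RNA was 14.7 in the 60 min library of replicate 1, against 10.1 to 11.5 in the other 5 total libraries. It was marked because the gap to the nearest library was 0.658 of the whole log2 range, above the 95% critical value of Dixon's test for 6 libraries. The same library had the lowest exonic abundance of Ccnf in total RNA, 71.8. Of 54 groups of 6 libraries examined in this way, chance marks about 2.7.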

How the results depend on the processing

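The count of exonic calls (2353) fell to 1270 with pairs of labeled and total libraries as a block, and was 0, 4 and 0 at 15, 30 and 60 min alone. The intronic count (4494) fell to 1818 and the ratio count (2678) to 1018 with library medians set equal, and without the 2 labeled libraries that stood apart they rose to 13186 and 8411. The transcript count (7870) was 4444 with the block and 12677 without those 2 libraries. Leaving out a library or replicate gave 0 to 2931 exonic, 1833 to 8052 intronic, 331 to 6238 ratio and 0 to 10421 transcript calls, with the 0 exonic calls reached without replicate 1. The replicate block changed no call of a cyclin but that of Ccnd3, and the ratio count was 3487 with it. For 60 against 15 min, labeled RNA had 6 calls with no minimum and 2 with no trend, total RNA had 4 with a pseudocount of 20, 8 with no minimum, 3 with missing values as 1, 3 with equal medians and 4 with no trend, and the change in the difference had 4 with a pseudocount of 20, 8 with no minimum and 5 with no trend. Leaving out a library gave 0 to 8, 0 to 7 and 0 to 11 of these calls, and the block gave 0 in each.

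Among differences that passed no test, signs turned in exonic abundance for Ccne2 (-0.22 at 60 min alone), Ccnb2 (0.18 at 60 min alone), Ccnb1 (0.18 at 15 min alone), Ccnd1 (0.068 at 30 min alone) and Ccnf (0.0023 with equal medians, 0.0030 without the 2 labeled libraries, 0.13 at 15 min alone). With equal medians the intronic difference was -0.015 for Ccnd3 and -0.073 for Ccnf, and the ratio difference -0.20 for Ccne1, -0.28 for Ccne2 and -0.083 for Ccnf. With a library or replicate left out, exonic differences ran from -0.094 to 0.026 for Ccnb2 and from -0.11 to 0.092 for Ccnf, and the ratio difference of Ccne2 from -0.35 to 1.24. The gap between classes ran from -0.03 to 0.15 without replicate 2 or 1, and was -0.02 on the longest transcripts. The cause of these shifts was not tested. The alternatives without the 2 labeled libraries and on the longest transcript were chosen after seeing the data. The 2 libraries were picked by intronic share, so the higher intronic and ratio counts without them are no separate evidence. The unknown depth of each single library limits how low values can be read, above all for Ccnd2 and for introns.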
